A study of Mus musculus with 24 samples.

Results

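The 6 libraries described here are mouse embryonic stem cells lacking MLL1 and mouse embryonic stem cells lacking MLL2, each after 4 days of retinoic acid, and they are 6 of the 24 libraries of the series. They were chosen by genotype and day: 3 replicates of the Mll1-KO at day 4 were set against 3 replicates of the Mll2-KO at day 4. The 3 WT libraries of the same day serve only to tell which mutant departs from WT, and the double-KO libraries of that day enter the fit for the spread alone. PolyA RNA of bulk cultures was sequenced from stranded TruSeq libraries. All day 4 cells were grown without LIF in 10% FBS with 1 µM retinoic acid, a protocol labelled as multilineage differentiation, so the cultures can hold several cell types. Day 0 cells of the same lines were kept on gelatin in 15% FBS with LIF.

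The Mll1-KO line carried a deletion made with a pair of CRISPR guides, and per the labels it was started from the Cre-inducible Mll2-KO line and left untreated. The Mll2-KO was that Cre-inducible line after 800 nM 4-hydroxytamoxifen (4-OHT) for 48 h, and the double-KO had both the deletion and the drug. WT cells were untreated. Every difference between Mll1-KO and Mll2-KO below is therefore also a difference between undrugged and drugged cells, and the effects of genotype and drug cannot be told apart. Neither the origin of the 3 replicates (separate cultures or not) nor the number of clones is stated in the labels, so p-values measure the spread between these samples only.

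MLL1 (KMT2A) and MLL2 (KMT2B) are paralogous histone methyltransferases that place methyl groups on lysine 4 of histone H3, a mark of active promoters and enhancers. Both sit in similar complexes with the WDR5, RBBP5, ASH2L and DPY30 subunits, and both have a CXXC domain that binds unmethylated CpG. MLL1 is best known for keeping Hox genes active, and MLL2 for H3 lysine 4 trimethylation at bivalent and other CpG-rich promoters in stem cells and oocytes. Retinoic acid acts through nuclear receptors that bind DNA next to Hox, Cyp26a1 and other genes, and in stem cells without LIF it drives loss of pluripotency and the appearance of endoderm-like and neural cells.

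Values are normalized counts, that is, gene read counts divided by 1 size factor per library. Changes are log2 differences of Mll1-KO minus Mll2-KO on the log2(normalized count + 1) scale, which understates changes of genes with few reads. Genes with a limma p below 0.05 after Benjamini-Hochberg adjustment over all 14303 genes tested count as called. "Rose", "higher", "fell" and "lower" describe Mll1-KO relative to Mll2-KO unless another pair is named. Recovered totals were 10.8 to 13.7 M reads for Mll1-KO, 15.4 to 17.1 M reads for Mll2-KO and 13.4 to 15.6 M reads for WT.

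The targeted gene was read first. Kmt2a, which encodes MLL1 (chr9:44803355-44881296, mm10), held 56.3, 69.5 and 42.1 in the Mll1-KO libraries, 2359, 2436 and 2292 in the Mll2-KO libraries and 2239, 2029 and 2156 in the WT libraries (log2 -5.40 ± 0.13 SE, limma adjusted p = 5.2e-21). The residual reads in Mll1-KO amounted to a level 42.3-fold below that of Mll2-KO. Kmt2b, which encodes MLL2 (chr7:30568858-30588726), held 2278, 2386 and 2192 in Mll1-KO, against 2359, 2717 and 2431 in Mll2-KO. A count over the whole gene cannot show the loss of single exons, so it checks nothing on the Mll2 deletion, and its small difference (log2 -0.13) lost its call when Mll1-KO replicate 1 or 3 or Mll2-KO replicate 2 was left out (limma adjusted p = 0.078, 0.16 and 0.29). The label of differentiated cells was checked against Pou5f1, which encodes the pluripotency factor OCT4. Its level was 313 ± 50.4 in Mll1-KO and 2371 ± 195 in Mll2-KO at day 4, against 31176 ± 1727 and 30715 ± 1455 in the same genotypes at day 0 (SD, n = 3 each).

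Most genes differed between the mutants. Of 14303 genes tested, 8669 (60.6%) were called, 4017 (28.1%) higher and 4652 (32.5%) lower in Mll1-KO, and the libraries of the mutants did not overlap for 9304 genes (65.0%). At the authors' scaling, 1397 genes (9.77%) were called and at least 2-fold higher in Mll1-KO and 677 (4.73%) at least 2-fold lower. The balance of the larger and of the smaller differences rests on the scaling. With quantile scaling 1003 genes were at least 2-fold higher and 906 at least 2-fold lower. Column totals of normalized counts were 15.2 to 15.3 M in Mll1-KO and 16.6 to 16.8 M in Mll2-KO. With columns set to equal totals, 66.2% of called genes were higher, against 46.3% with the authors' size factors, and the median of all genes moved to 0.11 from -0.03 log2. Differences below are read against that median of -0.03, and counts of called list members against the 28.1% higher and 32.5% lower of all genes.

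Comparison with WT showed which mutant had departed. Against WT, 5120 genes (35.8%) were called in Mll1-KO, 2367 higher (16.5%) and 2753 lower (19.2%). Of these, 148 (1.03%) were at least 2-fold higher and 303 (2.12%) at least 2-fold lower. In Mll2-KO 6537 genes (45.7%) were called against the same WT libraries, 3634 higher (25.4%) and 2903 lower (20.3%). With columns set to equal totals, 60.3% of the genes called in Mll1-KO were higher than WT, against 46.2% with the authors' size factors, and 34.5% of those called in Mll2-KO, against 55.6%. At the authors' scaling 264 (1.85%) of the Mll2-KO genes were at least 2-fold higher and 1040 (7.27%) at least 2-fold lower, but 540 and 725 with quantile scaling.

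Among the 1397 genes at least 2-fold higher in Mll1-KO than in Mll2-KO, WT lay nearer to Mll1-KO for 1168 and nearer to Mll2-KO for 229. By group means WT lay between the mutants for 1062 of them, above both for 313 and below both for 22. In that set 453 genes were called higher and 56 lower in Mll1-KO than in WT. For Mll2-KO none was called higher than WT and 1208 were called lower. The Mll2-KO mean was under 10 normalized counts for 480 of the 1397. Among the 677 genes at least 2-fold lower in Mll1-KO than in Mll2-KO, WT lay nearer to Mll1-KO for 315 and nearer to Mll2-KO for 362, and between the mutants for 602. In that set 456 genes were called lower and 2 higher in Mll1-KO than in WT, and 490 were called higher and 6 lower in Mll2-KO than in WT. Here the Mll1-KO mean was under 10 normalized counts for 195 of the 677. Both sets were chosen by the direct difference and both comparisons use the same WT libraries, so these counts describe where WT lies and are no separate test.

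**Figure D1:**
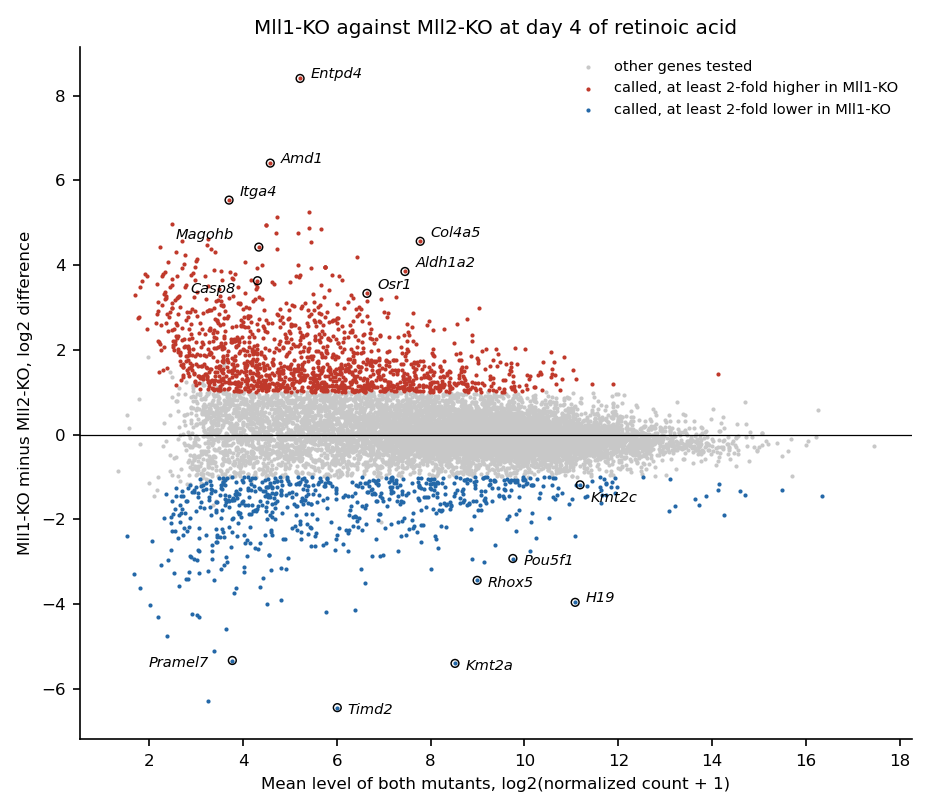
Each point is 1 of the 14303 genes tested at day 4, with the mean level of both mutants on the x axis, log2(normalized count + 1), and the log2 difference of Mll1-KO minus Mll2-KO on the y axis. Red points are the 1397 genes called and at least 2-fold higher in Mll1-KO, blue points the 677 at least 2-fold lower, and circles mark genes named in the text.

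The 15 genes named as largest rises ran from log2 4.07 to 8.41. Of these, 14 were called lower in Mll2-KO than in WT, and 4 were called higher in Mll1-KO than in WT. Among the rises are Entpd4, Amd1 and Tmem254c, whose counts are uncertain as said below. Itga4 (chr2:79255426-79333123) encodes integrin alpha 4, a receptor for fibronectin and VCAM1. Itga4 had 84.4, 86.1 and 79.9 normalized counts in the Mll1-KO libraries, 0.980, 2.04 and 0 in Mll2-KO and 78.2, 71.2 and 44.8 in WT. Every Mll1-KO and WT library thus lay far above every Mll2-KO library (log2 5.54 ± 0.46 SE, limma adjusted p = 1.2e-10). Only 3 reads fell in the Mll2-KO libraries together, and the ratio of Mll1-KO to Mll2-KO was 81.4 with a 95% exact counting interval of 27.4 to 398, which covers counting error only. Magohb (chr6:131284388-131293244), a core protein of the exon junction complex, had 95.6, 97.1 and 79.9 in Mll1-KO, 1.96, 5.10 and 3.27 in Mll2-KO and 101, 103 and 75.4 in WT (log2 4.43 ± 0.32 SE, limma adjusted p = 8.3e-12). It was called lower in Mll2-KO than in WT (log2 -4.45), while the difference of Mll1-KO from WT was -0.03 and not called.

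Among the largest rises were a pair of neighbouring collagen genes and a laminin gene. Col4a5 (chrX:141475385-141689234) and Col4a6 (chrX:141165403-141474076) encode the alpha 5 and alpha 6 chains of type IV collagen of basement membranes, and lie head to head on the X chromosome with annotated starts 1309 bases apart. Col4a5 had 1124, 1057 and 1014 in Mll1-KO, 48.0, 39.7 and 44.7 in Mll2-KO and 548, 436 and 470.1 in WT (log2 4.56 ± 0.10 SE, limma adjusted p = 2.3e-21). For Col4a6 the libraries gave 214, 228 and 175 in Mll1-KO, 10.8, 8.15 and 5.46 in Mll2-KO and 93.5, 77.2 and 87.2 in WT (log2 4.54 ± 0.22 SE, limma adjusted p = 4.4e-15). In both genes WT lay between the mutants: Mll1-KO was above WT by log2 1.14 for Col4a5 (limma adjusted p = 4.0e-09) and 1.25 for Col4a6 (limma adjusted p = 7.3e-05), and Mll2-KO was below WT by more. Lama2 (chr10:26980036-27619758), the alpha 2 chain of laminin, had 122, 128 and 139 in Mll1-KO, 1.96, 6.11 and 4.36 in Mll2-KO and 89.4, 89.2 and 82.5 in WT (log2 4.76 ± 0.29 SE, limma adjusted p = 4.4e-13).

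Promoter windows of these and of a few falling genes are shown because MLL1 and MLL2 share the CpG-binding CXXC domain, so that the spacing of CG letters can be read beside each gene's values. They come from RefSeq on GRCm38.p6, from 250 bases before to 50 after the start, on the strand of the gene, 5′ to 3′, with every CG in capitals. CG reads the same on both strands. Of 204 genes named by rule, 143 were given 1 such window, as were 11256 of the genes tested. Where a gene had several listed starts, the one nearest its 5′ end in GENCODE on the same strand was taken. Itga4 (chr2:79255176-79255475, plus strand) held 10 CG, and 19.5% of the 11256 windows held at most as many. Magohb, whose window is chr6:131293195-131293494 on the minus strand, held 25 CG, and 37.2% of windows held at least as many. Col4a5 (chrX:141475169-141475468, plus strand) held 11 and Col4a6 (chrX:141474027-141474326, minus strand) held 3, and 21.9% and 5.15% of windows held at most as many. Timd2 (chr11:46707055-46707354, minus strand) and Havcr1 (chr11:46739973-46740272, plus strand), both lower in Mll1-KO, held 3 and 4 CG, and 5.15% and 6.97% of windows held at most as many. The Havcr1 window lies inside the gene as annotated by GENCODE, downstream of the start used for its distance below.
Itga4: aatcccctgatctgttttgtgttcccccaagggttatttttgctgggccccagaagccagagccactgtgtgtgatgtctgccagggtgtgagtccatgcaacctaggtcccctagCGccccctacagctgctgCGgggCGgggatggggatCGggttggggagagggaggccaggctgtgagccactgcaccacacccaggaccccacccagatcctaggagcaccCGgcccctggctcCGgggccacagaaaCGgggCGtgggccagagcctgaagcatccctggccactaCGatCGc
Magohb: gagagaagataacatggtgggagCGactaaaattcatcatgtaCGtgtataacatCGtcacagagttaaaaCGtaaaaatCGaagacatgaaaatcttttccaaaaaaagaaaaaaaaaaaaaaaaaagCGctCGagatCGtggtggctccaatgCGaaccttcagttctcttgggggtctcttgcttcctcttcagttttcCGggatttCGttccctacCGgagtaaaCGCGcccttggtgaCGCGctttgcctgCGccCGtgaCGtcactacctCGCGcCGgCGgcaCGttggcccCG
Col4a5: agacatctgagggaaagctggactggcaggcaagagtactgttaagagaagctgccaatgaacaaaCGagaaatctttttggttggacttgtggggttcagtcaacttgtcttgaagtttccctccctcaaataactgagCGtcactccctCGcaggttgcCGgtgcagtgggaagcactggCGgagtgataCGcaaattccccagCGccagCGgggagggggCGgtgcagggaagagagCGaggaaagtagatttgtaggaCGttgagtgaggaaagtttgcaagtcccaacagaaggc
Col4a6: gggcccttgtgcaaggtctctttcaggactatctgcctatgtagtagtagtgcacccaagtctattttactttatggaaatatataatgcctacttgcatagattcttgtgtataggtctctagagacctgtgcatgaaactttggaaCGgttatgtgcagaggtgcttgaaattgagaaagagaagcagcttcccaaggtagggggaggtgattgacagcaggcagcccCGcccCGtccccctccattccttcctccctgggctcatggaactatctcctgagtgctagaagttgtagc
Timd2: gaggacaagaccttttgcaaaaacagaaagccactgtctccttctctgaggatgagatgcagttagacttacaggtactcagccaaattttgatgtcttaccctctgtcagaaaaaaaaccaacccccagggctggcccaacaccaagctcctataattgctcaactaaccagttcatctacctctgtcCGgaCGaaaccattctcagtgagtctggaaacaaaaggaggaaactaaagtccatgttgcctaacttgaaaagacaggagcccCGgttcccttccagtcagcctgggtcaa
Havcr1: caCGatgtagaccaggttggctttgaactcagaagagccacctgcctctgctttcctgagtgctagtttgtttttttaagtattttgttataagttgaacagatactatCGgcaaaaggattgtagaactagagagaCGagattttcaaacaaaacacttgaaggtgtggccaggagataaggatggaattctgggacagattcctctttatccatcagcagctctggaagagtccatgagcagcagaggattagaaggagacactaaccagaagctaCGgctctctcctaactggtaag

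Some other large rises were near WT in Mll1-KO, while for Chrdl1 and H2-M3 every WT library lay between the libraries of the mutants. Nox4 (chr7:87246096-87398710), an NADPH oxidase that makes hydrogen peroxide, had 108, 128 and 151 in Mll1-KO, 10.8, 1.02 and 1.09 in Mll2-KO and 132, 102 and 133 in WT (log2 5.13 ± 0.42 SE, limma adjusted p = 9.7e-11). For Igsf10 (chr3:59316735-59344394), a secreted immunoglobulin superfamily protein, the values were 274, 279 and 252 in Mll1-KO, 7.84, 11.2 and 6.55 in Mll2-KO and 249, 229.6 and 204 in WT (log2 4.85 ± 0.27 SE, limma adjusted p = 6.1e-14). Il3ra (chr14:14346275-14356011), the alpha chain of the interleukin 3 receptor, had 165, 163 and 222 in Mll1-KO, 7.84, 7.13 and 3.27 in Mll2-KO and 198, 192 and 216 in WT (log2 4.76 ± 0.29 SE, limma adjusted p = 3.7e-13). In these 3 genes the Mll1-KO and WT libraries overlapped or lay close, and Mll1-KO was not called against WT. Hmgcll1 (chr9:76014855-76136350), an HMG-CoA lyase-like enzyme, had 340.4, 375 and 377 in Mll1-KO and 19.6, 21.4 and 16.4 in Mll2-KO (log2 4.19). Pon3 (chr6:5220852-5256286), a paraoxonase, averaged 61.1 ± 5.59 in Mll1-KO and 3.35 ± 3.09 in Mll2-KO (SD, n = 3 each; log2 4.07). Chrdl1 (chrX:143285674-143394262), a secreted antagonist of BMP, had 177, 159 and 191 in Mll1-KO, 0, 13.2 and 14.2 in Mll2-KO and 86.4, 70.2 and 55.4 in WT, and 1 of the Mll2-KO libraries held no read (log2 4.87, 3.58 to 5.54 with 1 library left out). H2-M3 (chr17:37270220-37274484), a nonclassical MHC class I protein that presents formylated peptides, had 132, 107 and 101 in Mll1-KO, 8.82, 4.08 and 2.18 in Mll2-KO and 74.2, 52.1 and 62.4 in WT (log2 4.39 ± 0.45 SE, limma adjusted p = 7.4e-09).

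A few of the largest differences are uncertain because the genes have near-identical copies between which reads can be split. Entpd4, a lysosomal or Golgi nucleoside diphosphatase with a neighbouring copy, had 745, 657 and 393 in Mll1-KO, 3.92, 0 and 0 in Mll2-KO and 1.02, 351 and 157 in WT. Amd1, which makes decarboxylated S-adenosylmethionine for polyamine synthesis and has near-identical copies in the mouse, had 432, 384 and 22.4 in Mll1-KO, 0, 2.04 and 1.09 in Mll2-KO and 0, 125 and 25.9 in WT, a Mll1-KO to Mll2-KO ratio of 280 (95% exact counting interval 95.4 to 1362). Tmem254c, 1 of several Tmem254 copies, had 159, 248 and 46.3 in Mll1-KO, 0, 32.6 and 0 in Mll2-KO and 0, 17.0 and 0 in WT, and its direct difference was not called by DESeq2 (adjusted p = 0.12). Zfp433, of a cluster of KRAB zinc finger genes, had no read in Mll1-KO, 146, 81.5 and 39.3 in Mll2-KO and 159.5, 22.1 and 9.42 in WT, which makes Mll1-KO at least 22.7-fold lower by a floor of 3 reads per library. In each of these genes libraries of at least 1 group differed many times over.

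**Figure D2:**
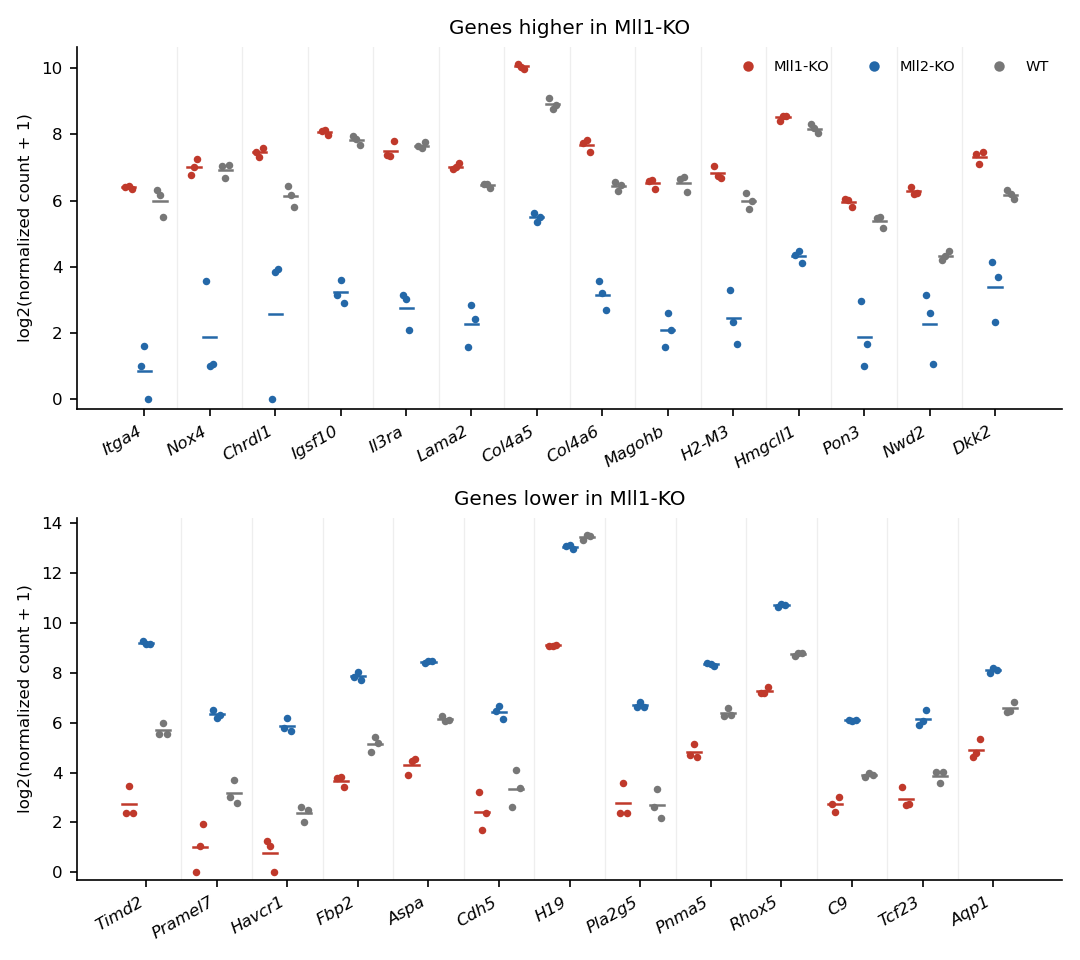
Levels of genes named by size of the difference, log2(normalized count + 1), in the 3 libraries each of Mll1-KO (red), Mll2-KO (blue) and WT (grey) at day 4, with bars at the means. The upper panel shows genes higher in Mll1-KO, where Mll2-KO libraries lie near the bottom, and the lower panel genes lower in Mll1-KO. Genes with near-identical copies and Kmt2a are not drawn.

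The 15 largest falls, from log2 -6.45 to -3.18, stood otherwise towards WT: 14 were called lower in Mll1-KO than in WT, and 12 were called higher in Mll2-KO than in WT. Among the falls are Kmt2a, the gene deleted in Mll1-KO, and Zfp433, whose counts are uncertain as said above. Timd2 (chr11:46668960-46707061) and Havcr1 (chr11:46735080-46779578) encode related TIM-family cell surface receptors (TIM-2 and TIM-1) and are neighbours on chromosome 11, with annotated starts 28.0 kb apart. Timd2 had 4.22, 9.93 and 4.21 in Mll1-KO, 614, 564 and 568 in Mll2-KO and 45.7, 62.2 and 45.9 in WT (log2 -6.45 ± 0.21 SE, limma adjusted p = 1.4e-18). No library of 1 group came near those of another, and WT lay between. Havcr1 had 1.41, 1.10 and 0 in Mll1-KO, 54.9, 71.3 and 50.2 in Mll2-KO and 5.08, 3.01 and 4.71 in WT, and Mll2-KO exceeded Mll1-KO 68.7-fold (95% exact counting interval 18.7 to 572, from 2 Mll1-KO reads in all). Pramel7 (chr2:87489087-87497093), a PRAME-family gene of the preimplantation embryo and naive stem cells, had 0, 1.10 and 2.80 in Mll1-KO, 89.2, 72.4 and 78.6 in Mll2-KO and 7.11, 12.0 and 5.89 in WT, and Mll2-KO exceeded Mll1-KO 62.3-fold (21.1 to 304, from 3 Mll1-KO reads). Pramel genes form a family with similar copies, so its count may be split.

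Fbp2 (chr13:62836877-62858422), the muscle-type fructose-1,6-bisphosphatase of gluconeogenesis, had 12.7, 13.2 and 9.82 in Mll1-KO, 227, 259 and 212 in Mll2-KO and 27.4, 42.1 and 35.3 in WT (log2 -4.18 ± 0.20 SE, limma adjusted p = 2.7e-15). Aspa (chr11:73304992-73329596), which cleaves N-acetylaspartate, had 14.1, 21.0 and 22.4 in Mll1-KO, 334, 359 and 351 in Mll2-KO and 77.2, 66.2 and 67.2 in WT (log2 -4.14 ± 0.16 SE, limma adjusted p = 4.8e-17). Both mutants were called against WT for each of these genes, in opposite directions. Pla2g5 (chr4:138799244-138863482), a secreted phospholipase A2, had 4.22, 11.0 and 4.21 in Mll1-KO, 97.0, 113 and 99.3 in Mll2-KO and 5.08, 9.02 and 3.53 in WT (log2 -3.91 ± 0.30 SE, limma adjusted p = 3.7e-11). Here Mll1-KO and WT libraries overlapped, and Mll2-KO alone was called against WT (log2 4.00).

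H19 (chr7:142575529-142578143) differed in another way. This maternally expressed imprinted long noncoding RNA had 541, 543 and 558 in Mll1-KO, 8696, 8948 and 8016 in Mll2-KO and 10272, 11902 and 11390.1 in WT (log2 -3.96 ± 0.05 SE, limma adjusted p = 4.0e-26). Both mutants were called lower than WT, by log2 -4.35 in Mll1-KO and -0.39 in Mll2-KO, so nearly all of the gap lay on the Mll1-KO side. X-linked Rhox5 (chrX:37804842-37808876), a reproductive homeobox gene, had 145, 145 and 171 in Mll1-KO, 1604, 1742 and 1677 in Mll2-KO and 406, 445 and 439 in WT (log2 -3.44 ± 0.07 SE, limma adjusted p = 7.0e-22). Pnma5 (chrX:73033981-73037103), a paraneoplastic antigen-like gene of the X chromosome, averaged 27.8 ± 5.61 in Mll1-KO and 324 ± 16.9 in Mll2-KO (log2 -3.51). In both X-linked genes Mll1-KO was called below WT and Mll2-KO above it. Cdh5 (chr8:104101625-104144511), the cadherin of endothelial junctions, had 8.44, 2.21 and 4.21 in Mll1-KO, 87.2, 99.9 and 70.9 in Mll2-KO and 5.08, 16.0 and 9.42 in WT (log2 -4.00 ± 0.36 SE, limma adjusted p = 7.8e-10). Aqp1 (chr6:55336432-55348555), a water channel, averaged 29.9 ± 8.22 in Mll1-KO and 274 ± 21.8 in Mll2-KO (log2 -3.18). C9 (chr15:6445327-6498751), a terminal complement component, had 5.63, 4.41 and 7.01 in Mll1-KO and 67.6, 66.2 and 68.7 in Mll2-KO (log2 -3.38), and Tcf23 (chr5:30968662-30977018), a basic helix-loop-helix protein, averaged 6.99 ± 2.47 in Mll1-KO and 71.5 ± 16.0 in Mll2-KO (log2 -3.20).

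Besides the pair of collagen genes and Amd1, the largest rises in which WT lay between mutants both called against it were Nwd2 and Dkk2. Nwd2 (chr5:63649102-63810546), an NACHT and WD repeat gene, had 84.4, 72.8 and 74.3 in Mll1-KO, 7.84, 5.10 and 1.09 in Mll2-KO and 17.3, 19.0 and 21.2 in WT (log2 4.01 ± 0.40 SE, limma adjusted p = 3.6e-09). Dkk2 (chr3:132085292-132180304), a secreted modulator of Wnt signalling, had 169, 137 and 177 in Mll1-KO, 16.7, 4.08 and 12.0 in Mll2-KO and 78.2, 72.2 and 64.8 in WT (log2 3.93 ± 0.29 SE, limma adjusted p = 2.0e-11). Over all genes, 363 of the 1397 at least 2-fold higher and 338 of the 677 at least 2-fold lower in Mll1-KO were called against WT in both mutants in opposite directions.

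Hox genes, which give cells their position along the body axis and respond to retinoic acid in order along each cluster, were mostly higher in Mll1-KO. Of 34 Hox genes tested, 24 were called higher and 4 lower, with a median of 0.59, beside -0.03 for all genes. Against WT, Mll1-KO had 11 called higher and 7 lower, with a median of 0.10, and Mll2-KO had 2 higher and 23 lower, with a median of -0.49. The HoxB cluster had 8 of 10 tested members higher (median 0.58), HoxC 6 of 7 (0.71), HoxD 6 of 7 (0.71) and HoxA 4 of 10 with 2 lower (0.07, and -0.11 with quantile scaling). In HoxB, Hoxb5 had 519, 499 and 468 in Mll1-KO, 186, 182 and 199.7 in Mll2-KO and 347, 352 and 371 in WT (log2 1.38 ± 0.09 SE, limma adjusted p = 7.1e-13). In HoxC, Hoxc4 had 479.6, 551 and 473 in Mll1-KO, 205, 147 and 177 in Mll2-KO and 351, 327 and 371 in WT (log2 1.51 ± 0.12 SE, limma adjusted p = 3.3e-11). Hoxd1 averaged 152 ± 18.6 in Mll1-KO, 52.5 ± 2.32 in Mll2-KO and 108 ± 7.80 in WT (log2 1.51 ± 0.16 SE, limma adjusted p = 7.5e-09). For these 3 genes the libraries of the 3 genotypes did not overlap and WT lay between.

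The HoxA cluster was mixed. Hoxa4 had 291, 320.0 and 348 in Mll1-KO, 123, 139 and 172 in Mll2-KO and 223, 237 and 197 in WT (log2 1.15 ± 0.11 SE, limma adjusted p = 2.5e-09), and Hoxa5 averaged 2274 ± 69.2 in Mll1-KO and 1673 ± 24.5 in Mll2-KO (log2 0.44). The order was the other way for Hoxa10, a posterior gene, which had 22.5, 23.2 and 43.5 in Mll1-KO, 88.2, 115 and 90.6 in Mll2-KO and 113, 85.2 and 74.2 in WT (log2 -1.74 ± 0.24 SE, limma adjusted p = 6.4e-07), and Mll2-KO was not called against WT (log2 0.12). Hoxa9 was low in both mutants, 49.2, 44.1 and 46.3 in Mll1-KO and 47.0, 56.1 and 39.3 in Mll2-KO, against 135, 123 and 105 in WT. Both were called lower than WT (log2 -1.35 and -1.34), and their direct difference of -0.01 ± 0.23 SE was not called. Hoxb13 was likewise below WT in both, with 279.9, 322 and 311 in Mll1-KO, 145, 162 and 184 in Mll2-KO and 482, 548 and 488 in WT, and differed between the mutants (log2 0.89 ± 0.10 SE, limma adjusted p = 3.9e-08). Hoxc13 was the HoxC gene called lower (101, 99.3 and 132 in Mll1-KO, 172, 160.0 and 184 in Mll2-KO; log2 -0.64).

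Many Hox calls rest on the set of libraries in the fit. With all 24 libraries in 1 fit, which takes in day 0, the log2 differences are the same, but 14 of the 24 genes called higher and 1 of the 4 called lower lost the call, among them Hoxb8 (limma adjusted p = 0.32) and Hoxc9 (0.42). Single libraries also decided some calls. Hoxa7 lost its call without Mll1-KO replicate 1 or 3 or Mll2-KO replicate 3 (limma adjusted p = 0.073 to 0.074), and Hoxd13 without Mll1-KO replicate 1 or Mll2-KO replicate 2 (limma adjusted p = 0.061 and 0.073). Hoxb4 lost it without Mll1-KO replicate 3 or Mll2-KO replicate 1 (limma adjusted p = 0.067 and 0.11). The calls of Hoxb1 and Hoxc10 were lost without Mll1-KO replicate 2 or Mll2-KO replicate 1 or 2, and of Hoxb1, the 1 HoxB gene called lower, also without Mll1-KO replicate 3 and of Hoxc10 without Mll1-KO replicate 1 (limma adjusted p up to 0.17 for Hoxb1 and 0.15 for Hoxc10). Neighbouring Hox genes overlap in the annotation, as Hoxd3 and Hoxd4 do, and how shared reads were assigned is not stated.

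**Figure D3:**
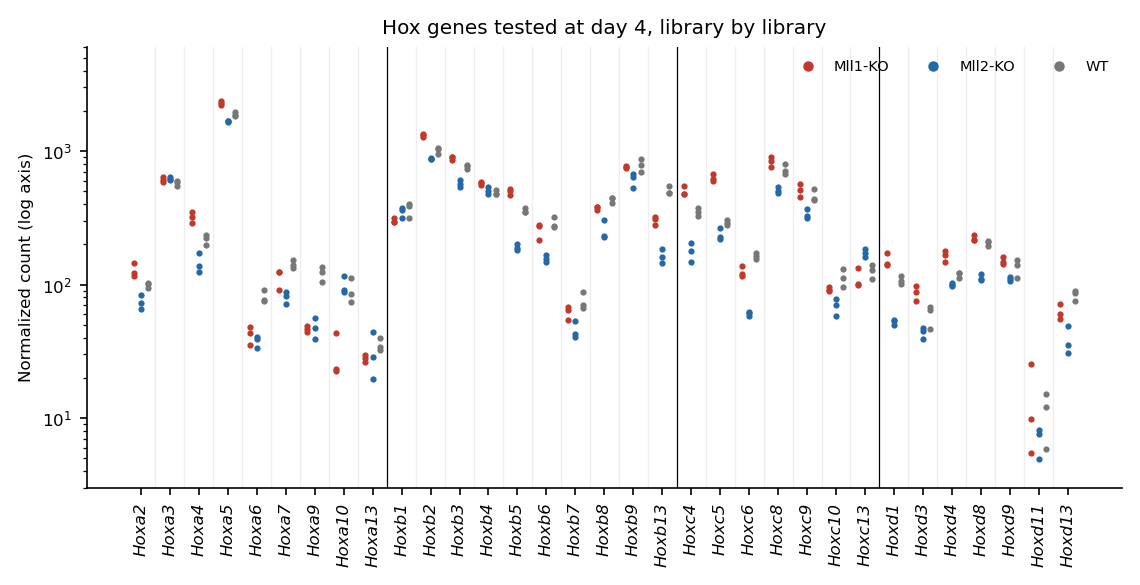
Normalized counts (log axis) of Hox genes tested at day 4, with 3 points for the libraries of Mll1-KO (red), of Mll2-KO (blue) and of WT (grey), and lines between the clusters A, B, C and D. Most HoxB, HoxC and HoxD genes have red above blue, and Hoxa10 and Hoxc13 have red below blue.

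Genes of the retinoic acid pathway were called higher for 12 and lower for 6 of 21 tested (median 0.19). Aldh1a2 (chr9:71215789-71296243), the main enzyme that makes retinoic acid in the embryo, had 665, 685 and 641 in Mll1-KO, 46.1, 47.9 and 41.5 in Mll2-KO and 380.1, 393 and 470.1 in WT (log2 3.85 ± 0.12 SE, limma adjusted p = 1.2e-18). Its Mll2-KO libraries lay far below both other groups. Rbp4 (chr19:38116629-38125281), the plasma carrier of retinol, had 924, 1055 and 952 in Mll1-KO, 319, 366 and 313 in Mll2-KO and 1858, 2186 and 2316 in WT (log2 1.55 ± 0.09 SE, limma adjusted p = 5.1e-14), so both mutants were below WT. The enzyme Cyp26a1, which breaks retinoic acid down and is a direct retinoic acid target, was lower at 7297, 7303 and 7175 in Mll1-KO, against 12554, 13313 and 12611 in Mll2-KO and 9619, 10066 and 10232 in WT (log2 -0.82 ± 0.04 SE, limma adjusted p = 1.1e-14). Aldh1a1, another retinaldehyde dehydrogenase, fell likewise (log2 -1.43), with WT near Mll1-KO. Among Hox partners, 6 of 11 were called higher and 3 lower. Pbx3, a TALE homeodomain partner of Hox proteins, averaged 343 ± 26.8 in Mll1-KO and 118 ± 11.3 in Mll2-KO (log2 1.54), and Cdx1, a caudal-type activator of Hox genes, 78.2 ± 28.4 in Mll1-KO and 313 ± 20.1 in Mll2-KO (log2 -2.06).

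Naive and core pluripotency genes were nearly all lower in Mll1-KO, and formative and primed ones were divided. Of 23 naive and core pluripotency genes tested none was called higher and 22 were called lower, 14 of them at least 2-fold, with a median of -1.27. Their summed level was 10643 to 11918 in Mll1-KO, 23219 to 25460.4 in Mll2-KO and 17296 to 19557 in WT. Pou5f1 had 314, 363 and 262 in Mll1-KO, 2356, 2572 and 2183 in Mll2-KO and 816, 1069.6 and 988 in WT (log2 -2.93 ± 0.09 SE, limma adjusted p = 6.5e-19). Nanog had 331, 416 and 328 in Mll1-KO, 828, 1091 and 821 in Mll2-KO and 524, 915 and 779.9 in WT (log2 -1.34 ± 0.13 SE, limma adjusted p = 3.2e-09). Sox2 averaged 125 ± 6.16 in Mll1-KO, 368 ± 31.9 in Mll2-KO and 362 ± 31.6 in WT (log2 -1.54 ± 0.10 SE, limma adjusted p = 1.3e-12). WT stood between the mutants for Pou5f1 and beside Mll2-KO for Sox2. Against WT, 22 of the 23 were called lower in Mll1-KO, and 15 higher and 1 lower in Mll2-KO. In bulk cultures fewer cells of a type and less RNA per cell cannot be told apart, and this holds for every marker list here. Of 15 formative and primed genes, 6 were called higher and 7 lower. Fgf5, a marker of the epiblast, averaged 102 ± 3.49 in Mll1-KO and 35.4 ± 4.90 in Mll2-KO (limma adjusted p = 5.1e-07), whereas Etv5, a target of FGF signalling, averaged 297 ± 16.7 in Mll1-KO and 951 ± 70.0 in Mll2-KO (log2 -1.67). Lefty2, a Nodal inhibitor and target, averaged 23.2 ± 4.86 in Mll1-KO and 158 ± 23.9 in Mll2-KO (log2 -2.72).

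Markers of extraembryonic endoderm were lower in Mll1-KO as well. For visceral endoderm, 4 of 29 tested markers were called higher and 23 lower (median -1.24), and their summed level was 29076 to 31343 in Mll1-KO, 65810.5 to 68531 in Mll2-KO and 53679.5 to 56846 in WT. For parietal endoderm and basement membrane, 2 of 24 were called higher and 21 lower (median -0.85), with sums of 266360.0 to 271806 in Mll1-KO, 550878 to 564694 in Mll2-KO and 407569 to 422252 in WT. Transcription factors of endoderm were called higher for 4 and lower for 13 of 20 (median -0.74), with sums of 9163 to 9269.9 in Mll1-KO, 12882 to 13238 in Mll2-KO and 10635 to 11296 in WT. In all 3 lists WT lay between the mutants in summed level. Much of this difference was present before retinoic acid. At day 0 the parietal list had 0 called higher and 21 lower in Mll1-KO than in Mll2-KO (median -1.18). The endoderm transcription factors then had 3 higher and 11 lower (median -0.71), and the visceral list 6 higher and 15 lower (median -0.67). Srgn, a proteoglycan core protein in both endoderm lists, had 923, 999 and 900.2 in Mll1-KO, 4758, 5032 and 5156 in Mll2-KO and 3046, 3255 and 3019.5 in WT (log2 -2.40 ± 0.05 SE, limma adjusted p = 7.0e-22). Sox7, a SOX factor of primitive and parietal endoderm, had 131, 121 and 98.2 in Mll1-KO, 639, 638 and 659 in Mll2-KO and 326, 289 and 296 in WT (log2 -2.47 ± 0.09 SE, limma adjusted p = 2.6e-17). Hnf4a, a nuclear receptor of visceral endoderm and liver, averaged 73.1 ± 3.76 in Mll1-KO and 209.6 ± 9.20 in Mll2-KO (log2 -1.51). The visceral endoderm markers that rose were Trf, Ctsh, Rbp4 and Podxl. Trf, the plasma iron carrier transferrin, had 180.0, 198 and 184 in Mll1-KO, 30.4, 37.7 and 30.6 in Mll2-KO and 184, 205 and 206 in WT (log2 2.48 ± 0.15 SE, limma adjusted p = 3.9e-13). No marker of these 3 lists was at 0 in all 6 mutant libraries. The part of pluripotent or endoderm cell content in the other differences was not tested.

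Mesothelial and collagen genes went the other way. Of 17 genes of mesothelium, the lining of body cavities, 12 were called higher and 1 lower (median 0.94), with summed levels of 18714 to 19172 in Mll1-KO, 12866 to 14149 in Mll2-KO and 17462 to 18486 in WT. Upk3b, a uroplakin of mesothelium, had 205, 218 and 209 in Mll1-KO, 13.7, 25.5 and 8.73 in Mll2-KO and 73.2, 52.1 and 58.9 in WT (log2 3.76 ± 0.25 SE, limma adjusted p = 1.5e-12). Of 33 collagens other than those of the parietal endoderm list, 20 were called higher and 4 lower (median 0.56). Osr1, a transcription factor of intermediate and lateral mesoderm, had 312, 329 and 306 in Mll1-KO, 29.4, 33.6 and 28.4 in Mll2-KO and 279, 273 and 266 in WT (log2 3.33 ± 0.14 SE, limma adjusted p = 3.0e-16). Mesoderm and cardiac genes as a list were divided, with 13 of 31 higher and 10 lower, and their median of 0.33 became -0.05 with quantile scaling. Myl7, an atrial myosin light chain, averaged 72.4 ± 11.1 in Mll1-KO and 217 ± 22.9 in Mll2-KO (log2 -1.57). The mesoderm sums were 11105 to 11626 in Mll1-KO, 13297 to 13412 in Mll2-KO and 12077 to 12327 in WT. Among 19 fibroblast genes 10 were called higher and 3 lower, with sums of 79823 to 91486 in Mll1-KO, 73535 to 85923 in Mll2-KO and 73072 to 81465 in WT, which overlapped between the mutants. Mmp2, a matrix metalloproteinase, had 1153, 1041 and 1195 in Mll1-KO, 177, 173 and 161 in Mll2-KO and 1016, 999 and 942 in WT (log2 2.72 ± 0.09 SE, limma adjusted p = 2.9e-18).

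Neural markers were lower for progenitors and divided for neurons. Of 28 neural progenitor genes tested, 3 were called higher and 15 lower (median -0.57), although the summed level of the list was not lower: 8182 to 8809 in Mll1-KO, 7678 to 8093 in Mll2-KO and 7265 to 7839.8 in WT. Nes, the intermediate filament nestin and a large share of that sum, was higher (4179.9, 4019 and 4666 in Mll1-KO, 3348, 2891 and 3601 in Mll2-KO; log2 0.39). Sox1, an early neuroectoderm factor, had 8.44, 15.4 and 11.2 in Mll1-KO, 65.7, 76.4 and 61.1 in Mll2-KO and 29.5, 35.1 and 34.2 in WT (log2 -2.47 ± 0.26 SE, limma adjusted p = 8.3e-09). Hes3 was at 0 in all 6 mutant libraries, and 10 of 38 progenitor genes were too low to test. Of 25 neuron genes, 8 were called higher and 3 lower. Their median of 0.26 became -0.09 with quantile scaling, and their sums were 5651 to 6144 in Mll1-KO, 3061 to 3169.7 in Mll2-KO and 3914 to 4255 in WT. Slc17a6, a vesicular glutamate transporter of neurons, was at 0 in all 6 mutant libraries. Syt1, the calcium sensor of synaptic vesicles, had 150.5, 153 and 125 in Mll1-KO, 12.7, 20.4 and 16.4 in Mll2-KO and 77.2, 73.2 and 90.7 in WT (log2 3.06 ± 0.22 SE, limma adjusted p = 1.3e-11). Neural crest genes were divided, with 7 of 18 called in each direction and sums of 4017 to 4103 in Mll1-KO, 3833 to 3952 in Mll2-KO and 3589 to 3738 in WT. Trophectoderm genes had 4 of 15 higher and 9 lower, with sums of 125586 to 129141 in Mll1-KO, 94904 to 102982 in Mll2-KO and 110108 to 119122 in WT, most of them from Peg10. Endothelial and blood genes had 3 of 14 higher and 7 lower, with sums of 2056 to 2134 in Mll1-KO, 5169 to 5498 in Mll2-KO and 3269 to 3406 in WT, and Ptprc, the leukocyte marker CD45, was at 0 in all 6 mutant libraries.

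Germline lists were divided, and genes of the 2-cell-like state were mostly higher. Of 34 germline and meiosis genes, 18 were called higher and 8 lower (median 0.47), with sums of 9564 to 9948 in Mll1-KO, 6186 to 6262 in Mll2-KO and 8855 to 9479 in WT. Sycp2, of the synaptonemal complex, had 39.4, 49.7 and 37.9 in Mll1-KO, 5.88, 5.10 and 2.18 in Mll2-KO and 53.9, 43.1 and 34.2 in WT (log2 3.07 ± 0.35 SE, limma adjusted p = 4.6e-08). Slc25a31, a testis-enriched ADP/ATP carrier, averaged 39.9 ± 2.17 in Mll1-KO and 5.46 ± 3.24 in Mll2-KO (log2 2.77). Tex101 and Hormad1 of this list fell. Tex101 held 2 reads in Mll1-KO and 27 in Mll2-KO, which was 10.8-fold higher (95% exact counting interval 2.71 to 93.6). Hormad1 lost its call without Mll1-KO replicate 1 or Mll2-KO replicate 2 (log2 -0.74 and -0.85, limma adjusted p = 0.086 and 0.069). Primordial germ cell genes had 3 of 11 called higher and 7 lower (median -0.85), and maternal-effect and oocyte genes 1 of 5 higher and 4 lower (median -0.78). Genes of the 2-cell-like state, a rare stem cell state that resembles the 2-cell embryo, were called higher for 15 of 18 tested and lower for 1, with a median of 2.18. Against WT, 12 of them were called lower and none higher in Mll1-KO, and 17 lower and none higher in Mll2-KO. Zscan4a, a zinc finger gene of that state with several near-identical copies, had 155, 167 and 158 in Mll1-KO, 21.6, 17.3 and 10.9 in Mll2-KO and 228, 418 and 331 in WT (log2 3.24 ± 0.30 SE, limma adjusted p = 8.7e-10). Zfp352 held 39 reads in Mll1-KO and 3 in Mll2-KO, a ratio of 16.3 (95% exact counting interval 5.17 to 82.3). Several 2-cell-like members are copies of one another, so their calls are not independent.

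Immune genes formed a further group of rises. Of 26 interferon-stimulated genes, 20 were called higher and 1 lower (median 0.87), and of 15 MHC class I genes and their processing partners, 13 higher and 1 lower (median 0.93). Ifih1, the cytosolic double-stranded RNA sensor MDA5, had 25.3, 47.4 and 54.7 in Mll1-KO, 0.980, 0 and 2.18 in Mll2-KO and 39.6, 30.1 and 27.1 in WT. The Mll2-KO libraries held 3 reads in all, and the ratio was 41.7 (95% exact counting interval 13.9 to 206). Ifit1, an interferon-induced RNA-binding protein, had 121, 135 and 143 in Mll1-KO, 13.7, 12.2 and 17.5 in Mll2-KO and 45.7, 49.1 and 36.5 in WT (log2 3.12 ± 0.21 SE, limma adjusted p = 2.0e-12), with WT between. Xaf1, a proapoptotic interferon target, was the interferon-stimulated gene called lower (28.1, 43.0 and 47.7 in Mll1-KO, 111, 74.4 and 111 in Mll2-KO; log2 -1.31). Against WT, Mll1-KO had 18 interferon-stimulated genes called higher and none lower, and Mll2-KO had 4 higher and 13 lower. The MHC class I genes lay more on the Mll2-KO side. Against WT they had 4 higher and 1 lower in Mll1-KO (median 0.20), and 1 higher and 11 lower in Mll2-KO (median -0.66). Of 19 death receptor pathway genes 8 were called higher and 3 lower. Casp8, its initiator caspase, had 59.1, 76.1 and 63.1 in Mll1-KO, 1.96, 7.13 and 5.46 in Mll2-KO and 69.1, 93.2 and 70.7 in WT (log2 3.63 ± 0.35 SE, limma adjusted p = 2.1e-09).

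Chromatin regulators mostly differed by small amounts. Of 20 COMPASS-family genes, that is MLL-type methyltransferases and their subunits, 2 were called higher and 12 lower (median -0.12). With columns set to equal totals these were 6 higher and 5 lower (median 0.01), where the median of all genes was 0.11 in place of -0.03. Kmt2c (chr5:25271798-25498783), which encodes the enhancer methyltransferase MLL3, had 1558, 1546 and 1519 in Mll1-KO, 3464, 3799 and 3285 in Mll2-KO and 2351, 2276 and 2227 in WT (log2 -1.19 ± 0.05 SE, limma adjusted p = 1.0e-16). It lay below WT in Mll1-KO and above WT in Mll2-KO. Smarca1 (chrX:47809368-47892974), an ISWI ATPase, had 567, 529 and 501 in Mll1-KO, 69.6, 75.4 and 72.0 in Mll2-KO and 561, 571 and 503 in WT (log2 2.86 ± 0.14 SE, limma adjusted p = 3.2e-15), with Mll1-KO beside WT. Among 14 Polycomb repressive complex 2 genes, 1 was called higher and 9 lower. Epop, a PRC2 cofactor, averaged 1083 ± 83.7 in Mll1-KO and 2579 ± 117 in Mll2-KO (log2 -1.25). Of the DNA methyltransferase group, Dnmt3a averaged 3160.1 ± 51.2 in Mll1-KO and 1749 ± 53.8 in Mll2-KO (log2 0.85), and Dnmt3b and its cofactor Dnmt3l were lower (log2 -1.08 and -1.86).

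Growth and metabolism genes were mostly lower in Mll1-KO. Of 32 genes of cholesterol synthesis and its control 1 was called higher and 26 lower (median -0.45), of 32 of glycolysis and hypoxia 4 higher and 23 lower (-0.46), and of 32 cell cycle genes 3 higher and 23 lower (-0.30). These medians were -0.31, -0.32 and -0.16 with columns set to equal totals, where that of all genes was 0.11. At least 2-fold lower were 4.73% of all genes, 0 cell cycle genes, 7 glycolysis and hypoxia genes and 2 cholesterol synthesis genes. Insig1, the sterol-regulated brake on that pathway, had 896, 863 and 868 in Mll1-KO, 2032, 1967 and 2136 in Mll2-KO and 1518, 1483 and 1570.4 in WT (log2 -1.22 ± 0.05 SE, limma adjusted p = 5.8e-17). Asns, asparagine synthetase and a target of the integrated stress response, had 1017, 1145 and 1143 in Mll1-KO, 2932, 2919 and 2763 in Mll2-KO and 1423, 1670.0 and 1529 in WT (log2 -1.38 ± 0.05 SE, limma adjusted p = 8.3e-17). Of 21 integrated stress response genes 1 was called higher and 13 lower. These lists stood differently at day 0. Stress response genes then had 1 higher and 18 lower (median -0.48), and cholesterol synthesis genes 0 and 22 (-0.44). Glycolysis and hypoxia genes had 17 higher and 11 lower (0.20), and cell cycle genes 21 and 6 (0.29). Adm, the hypoxia-induced peptide adrenomedullin, went against its list, with 75.9, 56.3 and 79.9 in Mll1-KO, 8.82, 10.2 and 20.7 in Mll2-KO and 46.7, 73.2 and 67.2 in WT (log2 2.41 ± 0.28 SE, limma adjusted p = 4.6e-08). Cdkn1c, the cell cycle inhibitor p57 and an imprinted gene, averaged 5487 ± 258 in Mll1-KO and 2840.4 ± 23.4 in Mll2-KO (log2 0.95).

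Imprinted genes were divided, with 16 of 40 called higher and 11 lower (median 0.06), beside H19 above. Ndn, a paternally expressed growth regulator of the Prader-Willi region, averaged 1196 ± 35.4 in Mll1-KO and 386 ± 6.03 in Mll2-KO (log2 1.63). Nnat, the proteolipid neuronatin, averaged 3472 ± 188 in Mll1-KO and 979 ± 68.2 in Mll2-KO (log2 1.83). Rian, a maternally expressed noncoding RNA of the Dlk1 region, had 19.7, 28.7 and 36.5 in Mll1-KO, 175, 222 and 178 in Mll2-KO and 141, 98.2 and 135 in WT (log2 -2.75 ± 0.19 SE, limma adjusted p = 5.6e-12). Of 32 clustered protocadherins, cell surface proteins made from alternative promoters that share last exons, 16 were called higher and 2 lower (median 0.39). Pcdhga11 averaged 159.5 ± 29.0 in Mll1-KO and 40.3 ± 6.66 in Mll2-KO (log2 1.95).

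Of 47 Wnt pathway genes 19 were called higher and 12 lower (median 0.08), of 27 FGF-ERK genes 13 and 9 (-0.01, and 0.13 with equal column totals), and of 17 Nodal and activin genes 3 and 8 (-0.34). Of 19 plasma protein genes 2 were called higher and 12 lower (-1.02), and Trf and Rbp4 were the ones higher. For 10 cathepsins the counts were 3 higher and 5 lower, and for 23 p53 targets 7 and 8. Over all genes tested 28.1% were called higher and 32.5% lower, and the p53 targets stood near those shares. DNA methylation genes had 5 higher and 8 lower of 21, but 9 and 6 with equal column totals. Exon junction complex genes had Magohb higher and 8 lower of 14, but 4 and 1 with equal column totals, and ISWI genes 3 higher and 9 lower of 15, but 4 and 4. Equal column totals moved the median of all genes as well, to 0.11 from -0.03.

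**Figure D4:**
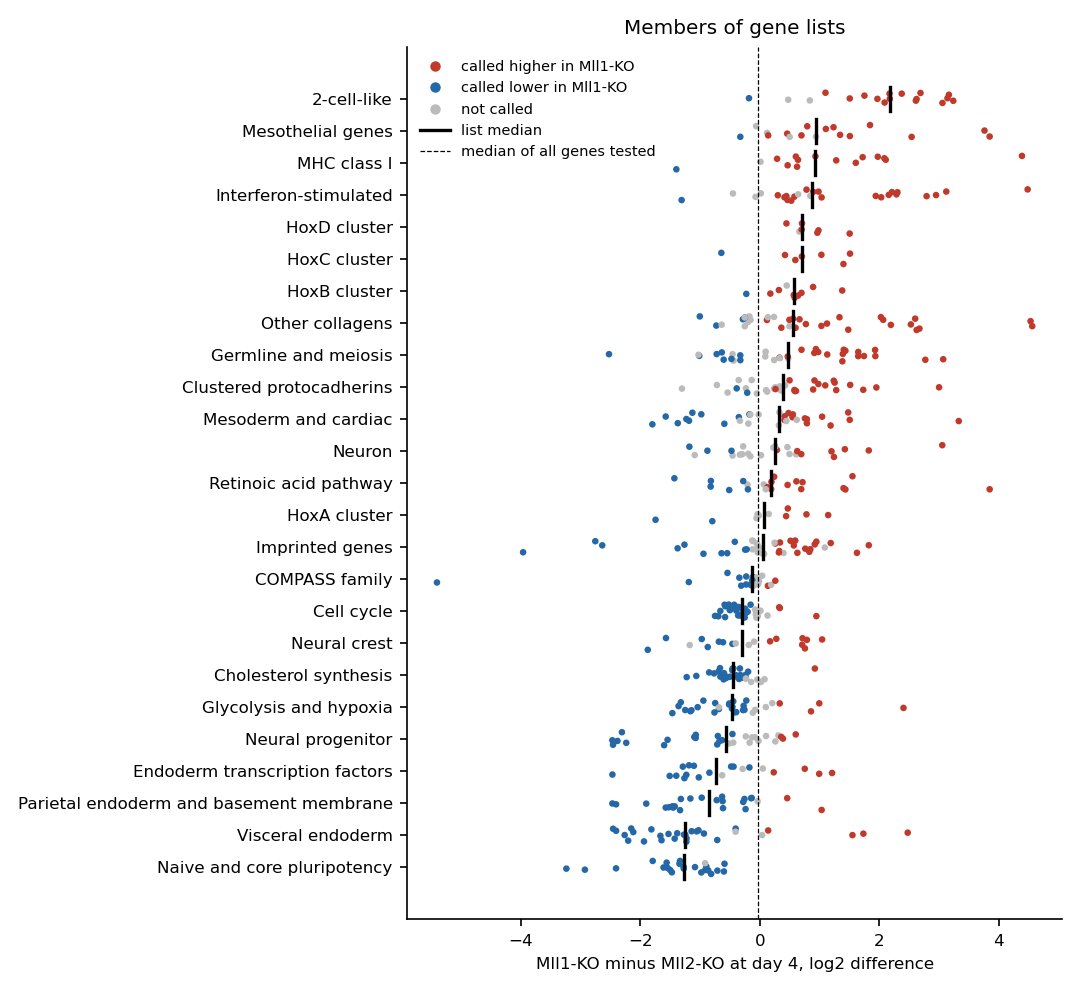
Log2 differences of Mll1-KO minus Mll2-KO at day 4 for the tested members of 25 gene lists, 1 point a gene, with black bars at list medians and a dashed line at the median of all genes (-0.03). Red points were called higher and blue points lower in Mll1-KO, and the lists run from 2-cell-like genes (median 2.18) to naive and core pluripotency genes (median -1.27).

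The same pair of mutants at day 0 showed what was already present before retinoic acid. In stem cell culture 8960 of 15114 genes (59.3%) were called between Mll1-KO and Mll2-KO, 4630 higher (30.6%) and 4330 lower (28.6%), and 1085 (7.18%) were at least 2-fold higher and 992 (6.56%) at least 2-fold lower. Of the 1397 genes at least 2-fold higher at day 4, 383 (27.4%) were so at day 0 too, which is 41.6% of the 920 day 0 genes of that kind in the day 4 set. For genes at least 2-fold lower, 168 of 677 (24.8%) were shared, 18.5% of 909. The test of the difference between days, on all 24 libraries, called 8337 genes (55.2%), 3938 (26.1%) with a more positive and 4399 (29.1%) with a more negative value at day 4, of which 1681 (11.1%) and 959 (6.35%) shifted at least 2-fold (1344 and 1200 with quantile scaling). With columns set to equal totals the more positive share of these calls was 66.2%, against 47.2%, and the median of all genes was 0.18. The test called 873 (62.5%) of the 1397 and 463 (68.4%) of the 677, of which 847 and 417 changed in the direction of the day 4 difference. Both sets were chosen by that day 4 difference, which the test of the change contains, so these shares are no separate test.

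Individual genes showed each kind of course. The difference in Kmt2a itself was alike on both days (log2 -5.56 at day 0), and the change of 0.16 was not called. Rbp4 also differed by a like amount (log2 1.57 at day 0). Itga4 was not called at day 0, with 1.03, 12.7 and 8.43 in Mll1-KO and 8.95, 8.87 and 6.10 in Mll2-KO, and Il3ra and Osr1 also differed between the mutants at day 4 and not at day 0 (change log2 4.70 ± 0.38 SE, limma adjusted p = 8.0e-11 for Il3ra; log2 3.33 for Osr1). Magohb was already higher at day 0 with 215, 247 and 229 in Mll1-KO and 44.8, 45.9 and 32.0 in Mll2-KO, and the difference grew (log2 1.95 ± 0.35 SE, limma adjusted p = 3.2e-05). Pou5f1 had 33023, 30905 and 29601 in Mll1-KO and 32388, 30004 and 29753 in Mll2-KO at day 0, with no difference called, so its gap of log2 -2.93 appeared during the 4 days (log2 -2.95 ± 0.12 SE, limma adjusted p = 1.4e-16). Lefty2 turned round: it held 355, 259.6 and 300.2 in Mll1-KO and 69.8, 58.8 and 45.8 in Mll2-KO at day 0, and 26.7, 17.7 and 25.2 in Mll1-KO and 136, 183 and 154 in Mll2-KO at day 4 (change log2 -5.10 ± 0.28 SE, limma adjusted p = 3.1e-14). Dnmt3b did the same (log2 1.27 at day 0 and -1.08 at day 4).

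Part of the Hox genes moved the other way. At day 0 none of the 34 was called higher and 18 were called lower in Mll1-KO than in Mll2-KO, with 16 not called. Those called lower were 8 in HoxA, the cluster mixed at day 4, 3 in HoxB, 2 in HoxC and 5 in HoxD. The HoxB median at day 0 was 0.17. By the test of the change 18 had a more positive difference at day 4, none a more negative one, and 16 had no change called. Hoxa4 held 2.06, 0.976 and 2.53 in Mll1-KO and 6.27, 20.2 and 11.4 in Mll2-KO at day 0. The change of its difference from day 0 to day 4 was log2 3.31 ± 0.41 SE (limma adjusted p = 1.5e-07). Srgn and Klb, a coreceptor for endocrine FGFs, were lower in Mll1-KO on both days, by more at day 0 (log2 -4.10 and -3.71) than at day 4 (log2 -2.40 and -2.01).

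**Figure D5:**
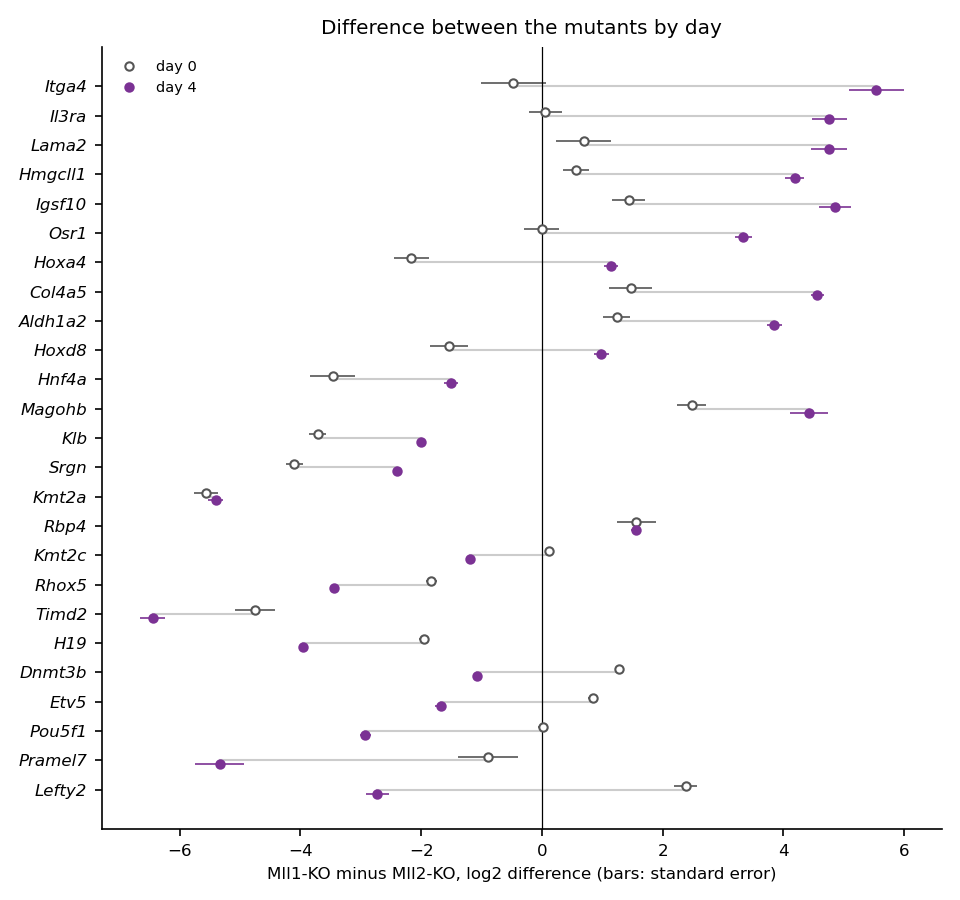
Log2 difference of Mll1-KO minus Mll2-KO at day 0 (open circles) and day 4 (filled circles) for 25 genes named in the text, with standard errors as bars, ordered by the change between days. Itga4, Il3ra, Lama2 and Osr1 were called at day 4 and not at day 0, Lefty2, Etv5 and Dnmt3b move from higher to lower in Mll1-KO, and Hoxa4 and Hoxd8 from lower to higher.

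Medians of the log2 difference ran from -0.10 on chromosome 18 to 0.01 on chromosome 17 across 19 autosomes, and the X chromosome had -0.02.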

How the data were processed

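PolyA RNA was sequenced from TruSeq stranded mRNA libraries, per the labels. The submitters' processing notes name the tools STAR 2.7.10a, RSEM 1.3.1, DESeq2 1.34.0, SAMtools 1.13, Trim Galore 3.4 and FastQC and the build mm10. The annotation, the strand setting and the handling of reads shared by similar genes are not given in the sources used here. The deposited table holds normalized counts for 19953 genes, a signal unit made by the authors by dividing gene counts by 1 size factor per library. Multiplied back, 100% of values were whole reads within 1e-06, so depth was known: 10.8 to 17.1 M reads in the 6 mutant libraries of day 4.

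Genes with at least 10 normalized counts in at least 3 of the 12 day 4 libraries were tested on log2(normalized count + 1) with limma 3.58.1 (R 4.3.3, mean-variance trend, Benjamini-Hochberg adjustment), all 4 genotypes in 1 fit without a replicate block. Day 0 and the change between days were fitted on all 24 libraries. Count models on the recovered reads, edgeR 4.0.16 and DESeq2 1.42.0, other scalings, filters and pseudocounts, and leaving out libraries were alternatives. The script was tested on simulated data. Replicate pairs of the 3 genotypes used at day 4 differed by 1.82 to 3.33 times the sampling noise (chi-square per degree of freedom), so none looked like 1 library deposited in duplicate. This does not show that they were independent cultures. Same-numbered day 4 libraries did not deviate together (r of -0.0328 to 0.0833).

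The members and gene lists were chosen with earlier results of these data known. Genes were named by rule: the 15 largest called rises and falls without overlap, where the higher group averaged 50 or more, passing over unnamed gene models, the 5 largest each way with WT between, up to 2 each way per list, Hox genes, and the 5 largest changes between days each way. Positions are from GENCODE M21 on mm10, where 19370 of 19953 symbols (97.1%) had 1 locus. With a promoter entry for 78.7% of genes tested, a comparison of CG content between sets of genes is void and none is reported. The values of some genes are not reported here. Intervals and floors cover counting error only.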

Additional observations from a re-analysis of the deposited data

Results flagged for a closer look

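The difference between Mll1-KO and Mll2-KO changed between day 0 and day 4 for 8337 genes by the interaction test of limma on 24 libraries, and 10 genes were picked as the largest changes. Each value below is the log2 difference at day 4 minus that at day 0.

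Rises between days were led by Cers1, which encodes a ceramide synthase and shares its transcript with Gdf1, with a change of 6.68. It had 0, 0 and 0 normalized counts in Mll1-KO and 66.2, 78.2 and 104 in Mll2-KO at day 0, and 85.8, 51.9 and 112 in Mll1-KO and 72.5, 62.2 and 56.7 in Mll2-KO at day 4, where no difference was called. Itga4 changed by 6.01, Tmem254c by 6.21, Amd1 by 5.75 and Gm13040, an unnamed gene model, by 4.78. The last 3 varied many times over between libraries of 1 group. For Gm13040 the values at day 4 were 50.6, 89.4 and 102 in Mll1-KO and 0, 0 and 15.3 in Mll2-KO, and its change lost the call with DESeq2 (adjusted p = 0.15). It also lost it without day 4 Mll1-KO replicate 2 or 3 or Mll2-KO replicate 1 or 2, or day 0 Mll1-KO replicate 3 or Mll2-KO replicate 1 or 2, with changes of 2.97 to 6.50 over all 12 such fits. Tmem254c lost the call with DESeq2 and edgeR (adjusted p = 0.27 and 0.054), and without day 4 Mll1-KO replicate 2 or Mll2-KO replicate 1 or 3, or day 0 Mll1-KO replicate 1 or Mll2-KO replicate 2, with changes of 3.78 to 7.90.

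Falls between days were Gm2260, an annotated pseudogene, with -5.48, Lefty2 with -5.10, Ttn with -4.47, Atp6v0a4 with -4.46 and Pramel7 with -4.44. Ttn, the giant sarcomere protein titin, had 463, 367 and 699 in Mll1-KO and 132, 176 and 96.9 in Mll2-KO at day 0, and 9.85, 11.0 and 2.80 in Mll1-KO and 48.0, 48.9 and 41.5 in Mll2-KO at day 4. The direction of its difference thus turned round between days, as that of Lefty2 did. Atp6v0a4, a proton pump subunit, had 68.9, 52.7 and 56.5 in Mll1-KO and 37.6, 12.9 and 18.3 in Mll2-KO at day 0, and 2.81, 3.31 and 4.21 in Mll1-KO and 31.4, 33.6 and 38.2 in Mll2-KO at day 4. Gm2260 missed the threshold with DESeq2 (adjusted p = 0.062) and had reads in 1 of 3 Mll1-KO libraries on either day.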

How the results depend on the processing

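Of 5862 recomputed values of 314 results, 5608 kept direction and side of the threshold, 233 lost significance, 8 gained it and 13 changed sign. Genes called between the mutants at day 4 numbered 7675 to 8906 under 13 settings and 7958 to 8137 with 1 of the 6 libraries left out. With the replicate block 8562 were called, 98.2% of the 8669 genes among them. The numbers share no stated pairing, and samples of the same number correlated at a median r of 0.0266. DESeq2 called 7920 and edgeR 8550. Of 197 named genes called directly, 163 kept the call under every alternative and 34 lost it under at least 1, many of them Hox genes.

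A minimum of 50 normalized counts left 833 genes at least 2-fold higher and 426 lower in Mll1-KO than in Mll2-KO, 60 and 187 in Mll1-KO than in WT, 137 and 585 in Mll2-KO than in WT, and 694 higher at day 0, since fewer genes were tested. Quantile scaling gave 540 genes at least 2-fold higher in Mll2-KO than in WT, and the cause was not tested. Equal column totals gave 2905 genes lower in Mll1-KO than in Mll2-KO, 2044 higher in Mll2-KO than in WT, and 2833 with a more negative change between days, since the libraries' totals differ.

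Signs that changed belonged to values not called, Kmt2b excepted. With equal column totals Kmt2b was 0.0079, Hoxa13 0.079, Hoxa3 0.10 and Hoxa9 0.12. With quantile scaling Hoxa3 was 0.0063, Hoxa6 -0.23 and Cers1 at day 4 -0.013. Hoxa9 was 0.017 with TMM and 0.0056 with edgeR, where Hoxa3 was also 0.0056. With 1 library left out Hoxa13 ranged over -0.32 to 0.23 and Hoxa9 over -0.14 to 0.11. The cause was not tested. Depth limits genes with few reads in 1 mutant, whose fold changes depend on the pseudocount.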
